A study of Mus musculus with 2 samples.

Results

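The blood vessels of the newborn mouse hindbrain were read through 34 genes of endothelial cells, pericytes and smooth muscle. The genes were taken from a list of vascular genes and matched by Ensembl identifier, and all 34 were found among the 43309 nuclear mouse genes of the tables. They fell into 18 genes of the endothelial cell (junctions and surface, receptor kinases, transcription factors), 6 transport genes of the blood-brain barrier, 9 genes of the mural cells that wrap the vessel, and Vegfa, a ligand kept apart because other cells make most of it. Total RNA came from the whole hindbrain of 2 pups of strain B6NCrl at postnatal day 0, labelled pup 1 (replicate 1) and pup 3 (replicate 2). No treatment, allele or sex was given, and both pups carried the same donor record. Each library was made from 13 pg of mirVana-extracted RNA longer than 200 nt, an amount the labels call 1 cell-equivalent, by a Smart-seq protocol with ERCC spike-in RNAs. Both libraries form 1 group, 1 library per pup, so differences between the pups describe a pair of libraries and have no test.

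Endothelial cells line the vessel, and in the brain their tight junctions and selective transporters form the barrier between blood and neural tissue. Pericytes and smooth muscle cells share the basement membrane with them and set vessel calibre and stability. Vessels grow into the developing hindbrain in response to vascular endothelial growth factors and Wnt ligands from neural cells, and the angiopoietins and platelet-derived growth factor act in their maturation.

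The libraries held 35462381 expected counts in pup 1 and 29866728 in pup 3. The 34 genes together took 0.175% of the counts of nuclear genes in pup 1 and 0.201% in pup 3. Levels are given in TPM, a share of all transcripts that is scaled to transcript length, here over nuclear genes. A count of at least 5 was called detected. Among marker lists for the tissue's cells, those of neurons summed to 7126 and 4710 TPM (pup 1 first, here and below, where 2 values stand together), those of astrocytes and radial glia to 7885 and 7303 TPM, of choroid plexus to 3244 and 3687 TPM, of microglia to 163 and 262 TPM and of endothelium to 241 and 227 TPM. Ttr alone made 3028 and 3380 TPM of the choroid plexus sum, and Kl and Clic6 had 0 counts in both. Of the microglia markers 2 were higher in pup 1 and 5 in pup 3, with Csf1r at 2027 and 0 counts and P2ry12 at 0 and 940. The sums are therefore not read as amounts of a cell type. Of the 10 endothelial markers 4 were detected in both pups, of the 7 pericyte markers 5, and of the 6 smooth muscle markers 3. The share to set beside such marker counts, here and below, is 37.8% of all protein-coding genes. Nothing particular to the marker lists is read from these counts. The platelet adhesion molecule Pecam1 and the sialomucin Emcn, which are commonly used to define endothelium, were near 0, and the contractile genes Myh11 and Cnn1, which define mature smooth muscle, had 0 counts in both. The other endothelial markers each had more counts in at least 1 pup, with Cldn5 at 85.3 and 156 TPM. Among the smooth muscle markers, Acta2 had 741 and 923 counts.

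Both pups shared 21 of the 34 genes. A further 6 were seen in pup 1 alone and 4 in pup 3 alone, and 3 reached the limit in no library. Of all 21461 protein-coding genes, 37.8% were shared, 12.3% were seen in pup 1 alone, 5.45% in pup 3 alone and 44.5% in no library. In whole tissue, fewer cells of a type and less RNA per cell cannot be told apart. The shared genes were 8 of the 9 mural, 4 of the 6 barrier and 9 of the 18 endothelial genes. With a limit of 1 TPM in place of 5 counts, 4 mural genes were shared, and with a limit of 1 count, 2 members were seen in pup 3 alone. The members seen in pup 1 only were Pecam1, Esam, Ly6c1, Tie1, Sox17 and Vegfa, those seen in pup 3 only were Flt1, Tek, Abcb1a and Anpep, and those below the limit in both were Ly6a, Emcn and Slco1a4. The plot of levels by pup shows that endothelial genes as high as Esam and Flt1 stood at or near 0 in a pup.

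**Figure D1:**
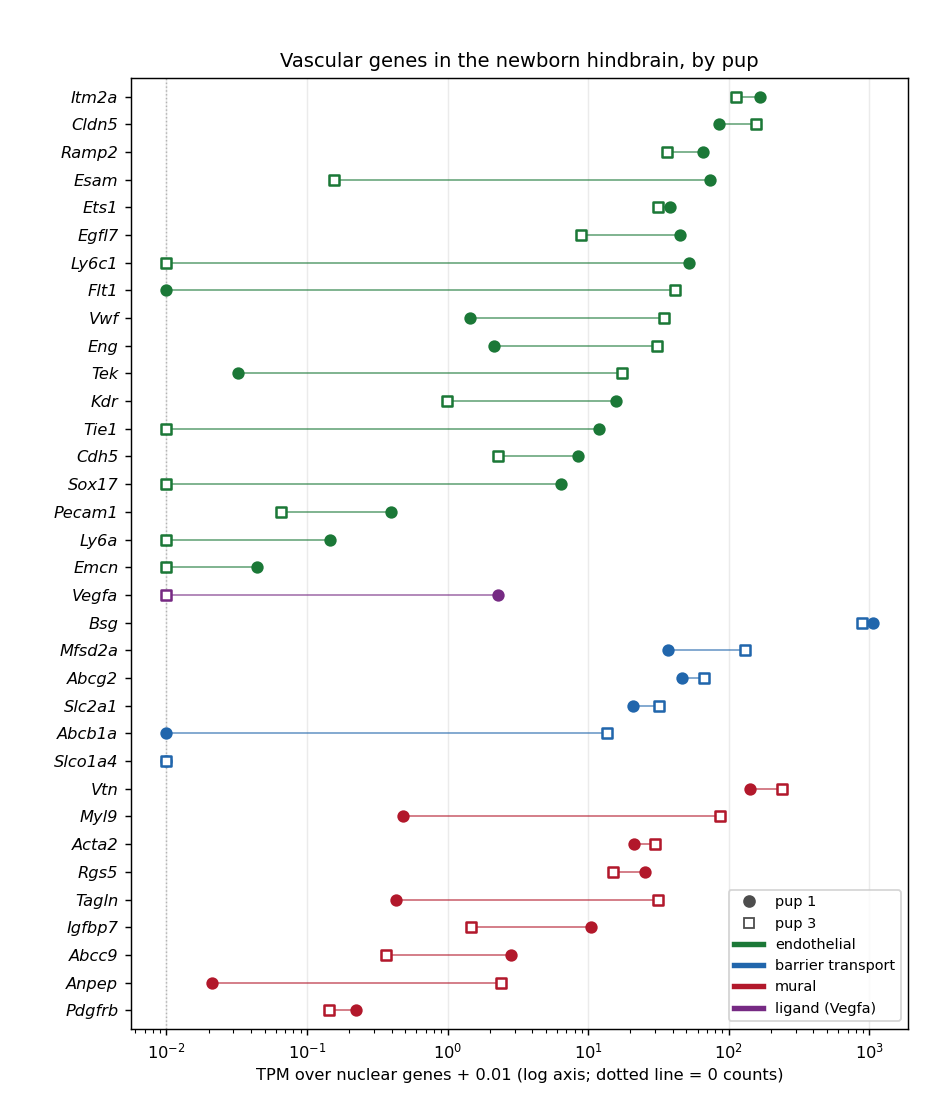
TPM over nuclear genes of each of the 34 genes in pup 1 (filled circles) and pup 3 (open squares), on a log axis with 0.01 added so that 0 counts can be drawn; colours mark the role group and the lines join the pups of 1 gene. Bsg lies highest in both pups, and Flt1, Tek, Esam, Ly6c1 and Tie1 span the axis from near 0 in 1 pup to above 10 TPM in the other.

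Bsg, the cell-surface glycoprotein basigin that is enriched at the brain endothelium but made by many cell types, led the order with 1055 TPM in pup 1 and 880 TPM in pup 3 (968 ± 124, SD, n = 2). Vtn, Itm2a, Cldn5 and Mfsd2a followed it by mean level. Of the 33 pairs of neighbours in this order, only Bsg and Vtn had pup values that did not overlap; the other 32 pairs cannot be ordered beyond the spread of the pups. Several genes changed place widely. Esam had rank 5 in pup 1 and rank 25 in pup 3, and Myl9 had ranks 24 and 6.

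The junction and surface genes with the highest mean levels were present in both pups. Cldn5, the claudin that seals the paracellular cleft of the barrier (chromosome 16, 18776847 to 18778262), had 2323 counts in pup 1 and 3744 in pup 3, or 85.3 and 156 TPM (121 ± 49.9, SD, n = 2). Itm2a, a transmembrane protein enriched in brain endothelium, stood at 166 and 112 TPM (139 ± 37.7, SD, n = 2). Together these 2 genes made 43.8% of the summed endothelial level in pup 1 and 56.7% in pup 3. Ramp2, the receptor partner through which adrenomedullin acts on endothelium, had 65.6 TPM in pup 1 and 36.2 TPM in pup 3 (50.9 ± 20.8, SD, n = 2). Its exons share 1103 bases with the neighbouring Vps25 on the same strand (4012 and 2393 counts), so its reads were divided by estimate, with a deposited posterior SD of 13.1 counts in pup 1 and 8.75 in pup 3.

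The adherens and adhesion genes lay lower in pup 3. Cdh5, VE-cadherin of the endothelial adherens junction, had 680 and 161 counts, or 8.45 and 2.27 TPM, 3.57-fold higher in pup 1 as a share of nuclear counts. Esam, an endothelial cell adhesion molecule (chromosome 9, 37528078 to 37538319), had 2682 counts (73.7 TPM) in pup 1 and 2 counts (0.145 TPM) in pup 3. The ratio of its shares was 1134, with a 95% exact counting interval of 313 to 9365. Amplified reads are not independent molecules, so such intervals and the limits set by 0 counts cover counting error only. Pecam1 had 19 counts in pup 1 and 3 in pup 3, a ratio of 5.35 (1.58 to 28.2). These 3 adhesion genes were thus each higher in pup 1.

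Ly6c1, a membrane-anchored Ly6 protein of brain endothelium (chromosome 15, 75044018 to 75048830), had 799 counts in pup 1, or 52.1 TPM, and 0 in pup 3. Set against a limit of 3 counts, its share was at least 225-fold higher in pup 1. Its paralog Ly6a had 2 counts and 0, and reads of the related genes of this cluster may be divided between them by estimate. Emcn had 1 count and 0.

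Eng and Vwf went the other way. Eng, the endothelial co-receptor endoglin of the TGF-beta family, had 40 counts (2.12 TPM) in pup 1 and 1850 (31.1 TPM) in pup 3, a 54.7-fold difference in share. Vwf, von Willebrand factor of the endothelial storage granule, had 136 and 1054 counts, or 1.45 and 34.8 TPM. The share of counts differed 9.17-fold, less than the TPM did, and the effective length by which TPM divides was 4538 nt in pup 1 and 1657 nt in pup 3. Eng shares 61 exon bases with Fpgs on the opposite strand (404 and 1024 counts), and since the use of strand in counting is not known, reads of such overlaps cannot be told apart.

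Egfl7 encodes a protein secreted by endothelium, and the same locus is the source of an endothelial microRNA, which is shown because reads of the 2 products come from 1 place in the genome. Capitals mark its seed, bases 2 to 8. The mature sequence is from RefSeq on GRCm38.p6 at chr2:26591402-26591423, plus strand.
mmu-miR-126a-3p: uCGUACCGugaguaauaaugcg
The microRNA gene had 0 counts in both pups, in libraries of RNA longer than 200 nt. The host gene (chromosome 2, 26580014 to 26593120) had 1009 counts in pup 1 and 210 in pup 3, or 45.2 and 8.90 TPM (27.0 ± 25.7, SD, n = 2). Egfl7 shares 64 exon bases with Agpat2 on the opposite strand, which had 1 count in pup 1 and 498 in pup 3.

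The 4 receptor kinases of the vessel split evenly between the pups. Flt1, the high-affinity receptor that also acts as a decoy for VEGF-A, had no counts (0) in pup 1, against 4782 or 41.4 TPM in pup 3, at least 1886-fold higher as a share. Kdr, the main signalling receptor for VEGF-A, had 1913 counts (15.9 TPM) in pup 1 and 105 (0.982 TPM) in pup 3, 15.4-fold higher in pup 1. Each pup therefore had counts mainly of a different VEGF receptor. The same held for the angiopoietin receptor Tek and its partner Tie1. Tek had 2 counts in pup 1 and 1442 (17.3 TPM) in pup 3, a ratio of 853 (236 to 7050). Tie1 had 960 counts (11.8 TPM) in pup 1 and 0 in pup 3, at least 270.5-fold higher in pup 1.

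Genes at these levels were also missing from a pup in the table as a whole. At 30 to 100 TPM in pup 1, 2 of 8 members (Esam and Ly6c1) were not detected in pup 3, where 13.3% of all protein-coding genes at that level were missing. At 10 to 30 TPM in pup 1 it was 1 of 6 (Tie1), against 30.5%. In the other direction, 1 of 10 members at 30 to 100 TPM in pup 3 (Flt1) was missing from pup 1, against 9.8%, and 2 of 3 at 10 to 30 TPM (Tek and Abcb1a), against 17.1%. Above these levels, at 100 to 300 TPM, none of 2 members in pup 1 and none of 4 in pup 3 was missing, against 1.92% and 1.02%. With so few members at each level, nothing particular to vascular genes is read from these counts.

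The promoters of Flt1 and Tie1 are shown because these receptors were each listed at 0 in a different pup. Both windows are the 250 bases before the RefSeq start on GRCm38.p6, read 5′ to 3′ on the gene's strand. Flt1 lies at chr5:147726012-147726261 and Tie1 at chr4:118489850-118490099, both on the minus strand. Capitals mark the core letters AGGAAG, or CTTCCT on the other strand, of the sites bound by ETS factors, the family of Ets1 that acts at many endothelial genes.
Flt1: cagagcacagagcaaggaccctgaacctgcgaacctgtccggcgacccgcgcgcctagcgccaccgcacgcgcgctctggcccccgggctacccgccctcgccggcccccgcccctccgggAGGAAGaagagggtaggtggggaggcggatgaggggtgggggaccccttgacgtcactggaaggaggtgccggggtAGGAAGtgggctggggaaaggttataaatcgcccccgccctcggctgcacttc
Tie1: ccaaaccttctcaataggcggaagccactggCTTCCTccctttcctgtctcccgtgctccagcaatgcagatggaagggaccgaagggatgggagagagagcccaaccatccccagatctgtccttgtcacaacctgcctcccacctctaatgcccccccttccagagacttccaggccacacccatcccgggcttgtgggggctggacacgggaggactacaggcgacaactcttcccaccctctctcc
The core started 129 and 53 bases before the start of Flt1 and 219 bases before that of Tie1. Of the 34 genes 23 had a RefSeq window, and 10 of these 23 held the core in at least 1 window: Egfl7, Ly6c1, Emcn, Eng, Itm2a, Flt1, Tie1, Slco1a4, Abcb1a and Abcg2. Over all 27025 genes with windows the share was 32.3%. A gene can have several windows, and Egfl7 and Abcg2 had matches in more than 1. The Abcb1a window ends at 8567090 on chromosome 5, far before the gene start of 8660077 in the annotation used for coordinates. No window was used for Pecam1, Cdh5, Esam, Ly6a, Ramp2, Vwf, Sox17, Ets1, Bsg, Pdgfrb and Tagln. The letters were thus found before genes of every detection class: shared (Abcg2), in pup 1 alone (Tie1), in pup 3 alone (Flt1) and in no library (Emcn). In Itm2a and Ly6c1, neighbouring matches overlap.

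**Figure D2:**
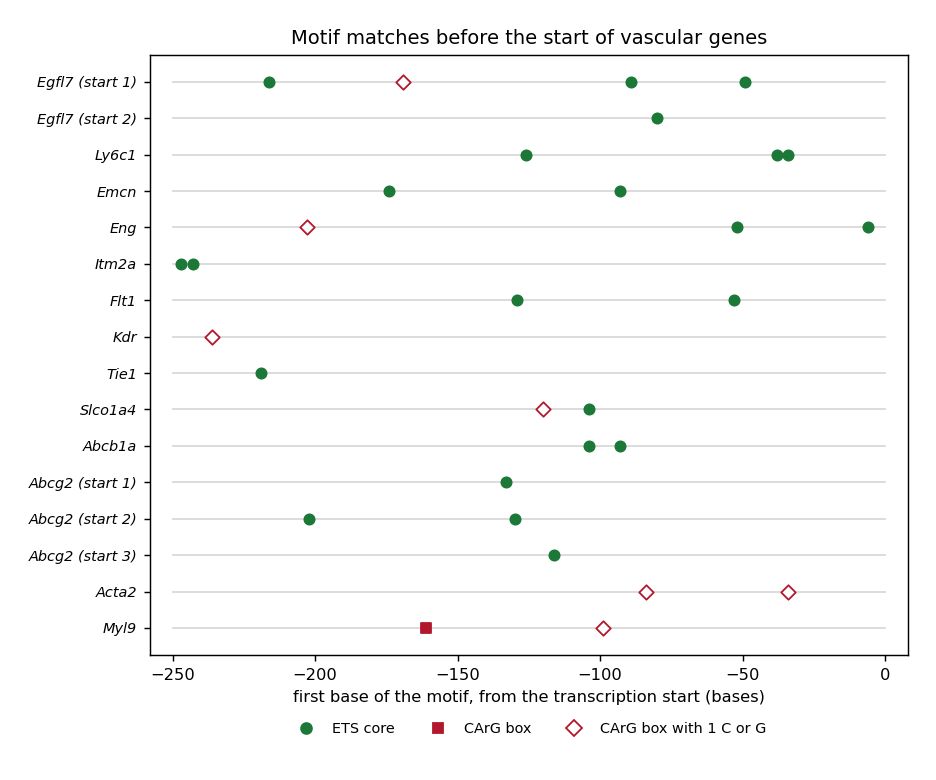
Distance in bases from the transcription start to the first base of each motif match, 1 line per RefSeq window of 250 bases, for the members with a match (green circles, ETS core; red squares, CArG box; open diamonds, CArG box with 1 C or G in its middle). Flt1 has the ETS core at -129 and -53 and Tie1 at -219, and the CArG box without a change lies only before Myl9, at -161.

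The endothelial transcription factors were Sox17 and Ets1. Sox17, which acts in arterial identity and Wnt response of the endothelium, had 249 counts (6.40 TPM) in pup 1 and 0 in pup 3, at least 70.2-fold higher in pup 1. Ets1 had 3610 counts in pup 1 and 1249 in pup 3, a 2.44-fold difference in share, yet 38.3 and 31.6 TPM (34.9 ± 4.73, SD, n = 2). The closeness in TPM goes with effective lengths of 4551 nt in pup 1 and 2164 nt in pup 3. The ligand Vegfa, which neural cells secrete and which drives vessel ingrowth, had 129 counts (2.28 TPM) in pup 1 and 0 in pup 3, at least 36.3-fold higher in pup 1.

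Of the 6 barrier genes, Bsg, Mfsd2a, Abcg2 and Slc2a1 were present in both pups. Mfsd2a, the lipid carrier that also limits transcytosis, had 1573 counts in pup 1 and 4614 in pup 3, or 37.0 and 130 TPM (83.3 ± 65.5, SD, n = 2). Abcg2, an efflux pump of the luminal membrane, had 2163 and 2104 counts, or 46.9 and 67.1 TPM (57.0 ± 14.3, SD, n = 2). Slc2a1, the glucose carrier GLUT1, had 20.7 and 31.9 TPM (26.3 ± 7.89, SD, n = 2). In each of these 4 genes the pups lay within 4-fold of each other. Abcb1a, the P-glycoprotein efflux pump (chromosome 5, 8660077 to 8748575), had 0 counts in pup 1 and 1216 in pup 3, or 13.6 TPM, at least 479.5-fold higher in pup 3, and reads it shares with its close paralog Abcb1b are divided by estimate. Slco1a4, an organic anion transporter of the adult barrier, had 0 counts in both, below the limit of 3 counts, which is a CPM of 0.0897 in pup 1 and 0.106 in pup 3. Bsg made 91.0% of the summed barrier level in pup 1 and 78.4% in pup 3.

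Of the 5 pericyte genes 4 were detected in both pups, with Vtn highest and Pdgfrb lowest. Vtn, the vitronectin that brain pericytes secrete (chromosome 11, 78499091 to 78502324), had 3616 counts in pup 1 and 5603 in pup 3, or 142 and 240 TPM (191 ± 69.4, SD, n = 2). Rgs5, a regulator of G-protein signalling and a pericyte marker, had 25.3 and 15.1 TPM (20.2 ± 7.24, SD, n = 2). The PDGF receptor Pdgfrb, on which pericyte recruitment depends, was near the limit, at 23 and 13 counts, with a ratio of 1.50 (0.727 to 3.21) whose interval spans 1. The receptor was thus barely seen in either pup, while Vtn and Rgs5 were well above it in both. Abcc9, the sulfonylurea receptor of the pericyte potassium channel, had 421 and 48 counts, or 2.80 and 0.357 TPM. Anpep, the aminopeptidase CD13, had 1 count in pup 1 and 151 in pup 3 (2.40 TPM), a ratio of 179 (31.6 to 7102). Igfbp7, a secreted binding protein of the vessel wall, had 222 counts (10.5 TPM) in pup 1 and 27 (1.45 TPM) in pup 3. It shares 85 exon bases with Polr2b on the opposite strand (5655 and 1661 counts).

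All 3 smooth muscle genes were higher in pup 3, by unequal amounts. Acta2, smooth muscle actin, had 741 counts in pup 1 and 923 in pup 3, or 21.3 and 30.04 TPM (25.7 ± 6.21, SD, n = 2). Tagln, the actin-binding transgelin, had 13 counts (0.418 TPM) and 858 (31.6 TPM), a 78.1-fold difference in share. Myl9, the regulatory light chain of smooth muscle myosin, had 10 counts (0.474 TPM) and 1625 (86.5 TPM), a 192-fold difference. Acta2 therefore differed little while both of the others were near absent from pup 1. Tagln shares 108 exon bases with Pcsk7 on the opposite strand, which had 1307 counts in pup 1 and 11.3 in pup 3, the reverse order. Markers of skeletal muscle summed to 26.9 and 44.9 TPM, with 1 of 5 detected in both and Myh3 and Myog at 0 in both. Acta1 made 14.2 and 44.7 TPM of this sum. Tnnt3 (214 and 0 counts) and Ckm (37 and 4 counts) went the other way. The part of skeletal muscle in the smooth muscle values was not tested.

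The promoters of Acta2 and Myl9 are shown because both genes are textbook targets of serum response factor, which binds the CArG box (CC, then 6 bases that are each A or T, then GG), and yet they differed so unequally between the pups. Both are the 250 bases before the RefSeq start on GRCm38.p6, Acta2 at chr19:34255374-34255623 on the minus strand and Myl9 at chr2:156775214-156775463 on the plus strand. Capitals mark a CArG box, allowing 1 C or G among the middle bases.
Acta2: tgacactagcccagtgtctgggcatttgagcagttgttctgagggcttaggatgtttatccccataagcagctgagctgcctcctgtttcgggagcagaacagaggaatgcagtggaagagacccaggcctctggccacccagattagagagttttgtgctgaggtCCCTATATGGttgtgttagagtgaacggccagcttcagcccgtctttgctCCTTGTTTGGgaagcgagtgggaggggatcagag
Myl9: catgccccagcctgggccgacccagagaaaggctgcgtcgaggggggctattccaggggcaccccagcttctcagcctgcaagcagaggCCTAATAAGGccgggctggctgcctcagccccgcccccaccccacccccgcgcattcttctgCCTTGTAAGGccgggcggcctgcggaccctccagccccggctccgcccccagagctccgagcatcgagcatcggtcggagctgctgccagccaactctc
In Acta2 the matches started 84 and 34 bases before the start, both with 1 C or G in the middle. In Myl9 an unaltered box started 161 bases before it and an altered one 99 bases before it. The unaltered box was in 1 of the 23 genes with a window, against 1.62% of all genes. The altered one was in 6 of 23 (Egfl7, Eng, Kdr, Slco1a4, Acta2 and Myl9), against 8.33% of all genes. A match of letters describes these windows and is not shown to be a bound site.

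Summed by role, the endothelial genes reached 573 TPM in pup 1 and 473 TPM in pup 3 (523 ± 70.3, SD, n = 2), the barrier genes 1160 and 1123 TPM (1141 ± 26.4, SD, n = 2), and the mural genes 203 and 408 TPM (305 ± 145, SD, n = 2). The barrier totals were close between the pups through Bsg, and without it they were 105 and 242 TPM, a wider gap in proportion than that of the mural sums. The mural sum was 0.354 of the endothelial sum in pup 1 and 0.861 in pup 3. Vtn made 69.9% of the mural sum in pup 1 and 58.9% in pup 3, and Tagln and Myl9 made 0.440% and 29.0%. Without Tagln and Myl9 the mural sums were 202 and 289.6 TPM, a smaller gap. Markers of meningeal fibroblasts, which lie beside the vessels of the brain surface, summed to 2669 and 4735 TPM, with 7 of 8 detected in both and Lum at 1 count and 0. Ptgds alone made 2333 and 4325 TPM of this sum, and Col3a1 went the other way, at 71.7 and 17.1 TPM. Erythroid markers summed to 1486 and 3941 TPM, with 4 of 7 detected in both, Slc4a1 at 0 counts and 1, and Alas2 in the other direction at 909 counts and 0. Their part in the mural difference was not tested.

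**Figure D3:**
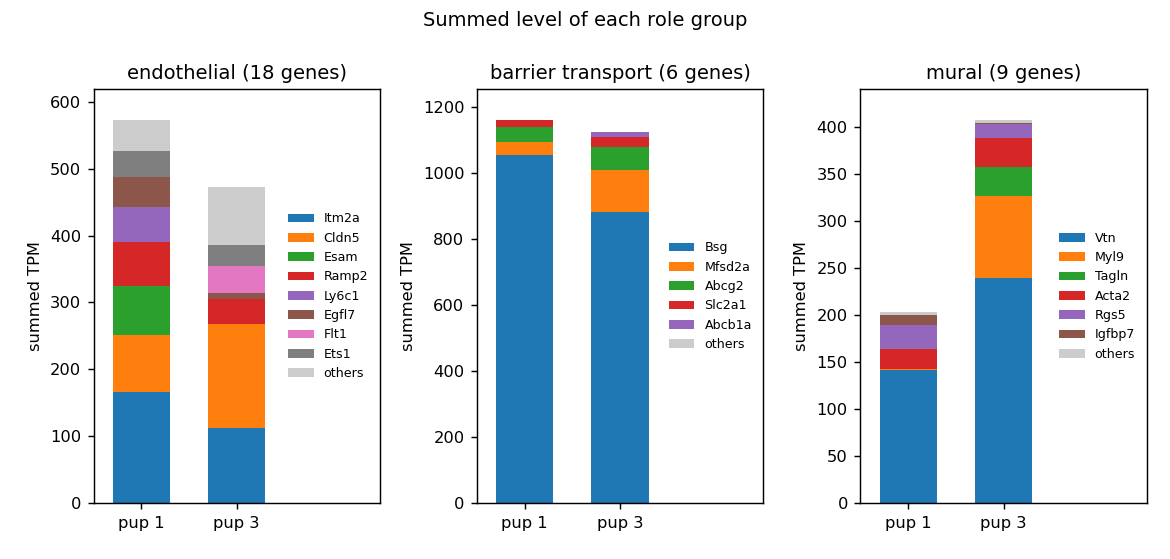
Summed TPM of the endothelial, barrier and mural genes in each pup, stacked by gene, with the smaller genes pooled as others; each panel has its own axis from 0. The endothelial bars reach 573 and 473 TPM, with Cldn5 and Itm2a making 43.8% and 56.7% of them, and in the mural panel Myl9 and Tagln are visible only in pup 3.

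Differences of at least 4-fold between the pups, on the log2(TPM + 1) scale, were counted among the 29 members with at least 50 counts in a pup. Esam, Egfl7, Ly6c1, Kdr, Tie1, Sox17 and Igfbp7, 7 in all, were higher in pup 1, where 23.6% of protein-coding genes met the same rule. Eng, Vwf, Flt1, Tek, Abcb1a, Tagln and Myl9, also 7, were higher in pup 3, against 16.2%. Neither count is read as particular to these genes. With a fold of 8 the count for pup 1 was 4, and with a pseudocount of 5 it was 2. The added 1 TPM understates low genes: Vegfa, Anpep and Abcc9 stayed within 4-fold on this scale with log2 values of -1.71, 1.75 and -1.49. On this scale the median difference (pup 3 minus pup 1) was -0.26 for the 31 members detected in a pup and -0.16 for the 11905 protein-coding genes. By role it was -0.70 for endothelial genes, 0.60 for barrier genes and 0.48 for mural genes. These medians hide differences inside the roles. The 4 receptor kinases among the endothelial genes had a median of 0.54. Of the 9 mural genes 4 were higher in pup 1 and 5 in pup 3, and without Tagln and Myl9 the mural median was -0.10. For the 21 members detected in both pups the median difference was -0.10, against 0.14 for 8102 genes.

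**Figure D4:**
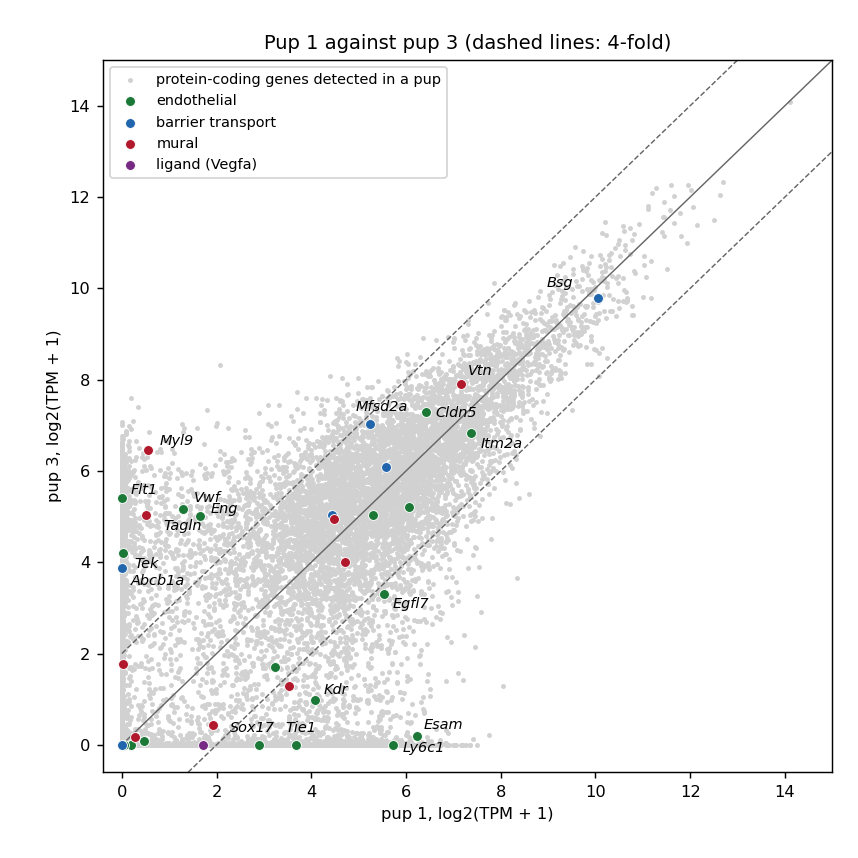
log2(TPM + 1) in pup 1 against pup 3 for the protein-coding genes detected in a pup (grey) and the 34 vascular genes (coloured by role); the solid line marks equal levels and the dashed lines 4-fold. Bsg, Vtn, Cldn5 and Itm2a lie near the solid line, Flt1, Tek and Abcb1a lie along the vertical axis and Ly6c1, Tie1 and Sox17 along the horizontal one, among grey points that do the same.

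The transcript tables list 170 transcripts for the 34 genes. Among 11 members with several transcripts and at least 50 counts in both pups, 8 had the same leading transcript in both, and 63.6% of such protein-coding genes did. The leading transcript is that with the highest percent of the gene's TPM. By expected count, 9 of the 11 members had the same one in both pups. Bsg-205 took 99.2% of the TPM of Bsg in pup 1 and 98.5% in pup 3. Kdr-201 and Slc2a1-201 each took all of their gene's level in both pups, and Cldn5 has 1 listed transcript. For Vtn, the coding Vtn-201 led with 58.7% and 65.5%, and the retained-intron transcript Vtn-204 took 30.4% and 34.4%, so the Vtn level includes RNA that is not annotated as coding. The retained-intron Ramp2-205 led Ramp2 with 47.8% and 53.8% of its TPM. By expected count the coding Ramp2-204 led, with 558 against 427 counts in pup 1 and 329 against 234 in pup 3. Reads that Ramp2 shares with Vps25 were divided by estimate.

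In 3 genes the leading transcript by percent of TPM differed. Egfl7 was led by Egfl7-216 in pup 1 (74.5%) and by Egfl7-212 in pup 3 (100%), both coding. Ets1-201, the long coding transcript of 5080 nt, took 86.1% of Ets1 in pup 1 and 27.3% in pup 3, where the 678 nt Ets1-205 led with 36.5%. By expected count Ets1-201 led in both pups, and in pup 3 it had 785 counts against 122 for the shorter Ets1-205. For Vwf, ENSMUST00000001995.9, of 8817 nt, led in pup 1 with 39.8% of few counts (136), while in pup 3 Vwf-210, annotated as nonsense-mediated decay, took 58.3% and 959 counts, and the processed transcript Vwf-209 took the remaining 41.7%. No transcript of Vwf annotated as coding had counts in pup 3, so its 34.8 TPM there came from these 2 transcripts. Flt1 in pup 3 was led by Flt1-202 of 6895 nt (58.7%), with 35.9% in Flt1-203. Eng was led by Eng-201 in pup 3 (82.8%) and by Eng-204 in pup 1 (70.0% of 40 counts). Vegfa in pup 1 was led by Vegfa-201 (88.1%).

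**Figure D5:**
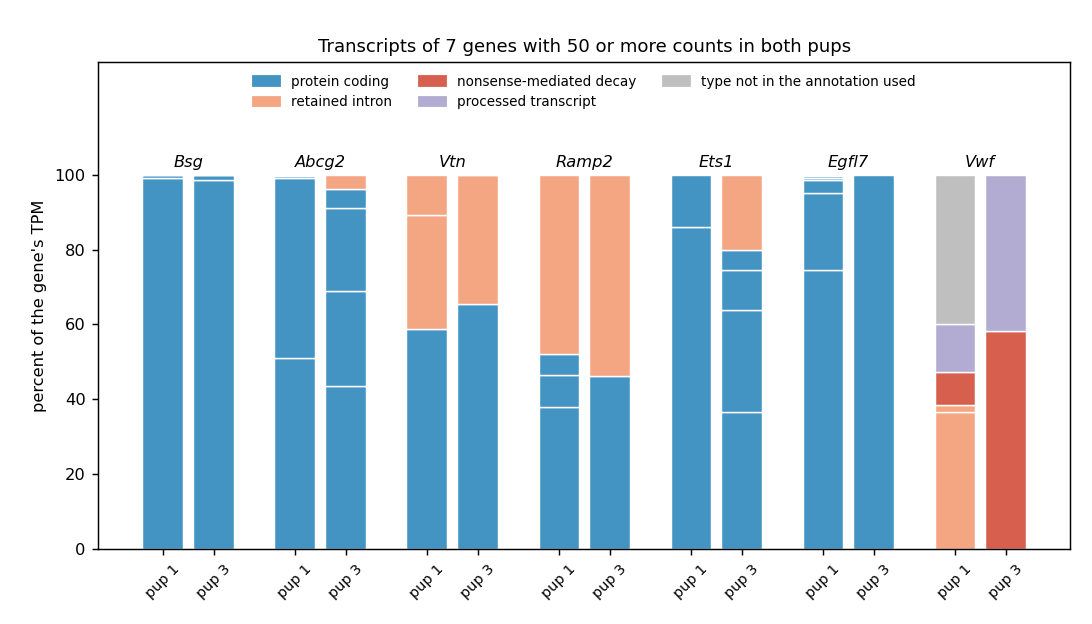
Percent of each gene's TPM taken by its transcripts in each pup, coloured by annotated transcript type, for 7 genes with at least 50 counts in both pups; white lines separate transcripts. Bsg is nearly 1 coding block in both pups, Vtn and Ramp2 keep a retained-intron block in both, and Vwf in pup 3 holds 58.3% nonsense-mediated decay and 41.7% processed transcript.

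Companion genes of the same pathways were read from 5 further lists, 81 genes in all. The pups shared 32 of them, 20 were seen in pup 1 alone, 6 in pup 3 alone and 23 in no library, beside 37.8%, 12.3%, 5.45% and 44.5% of all protein-coding genes. Of the 52 with at least 50 counts, 18 were at least 4-fold higher in pup 1 and 5 in pup 3, beside 23.6% and 16.2%. These counts have no test, and nothing particular to the lists is read from them. Among 25 genes of vascular signalling, 5 were shared, 8 were seen in pup 1 alone and 3 in pup 3 alone, and of 13 with at least 50 counts 7 were at least 4-fold higher in pup 1 and 1 in pup 3. Of the ligands, Vegfb had 1127 counts in pup 1 and 9 in pup 3, the placental growth factor Pgf 1177 and 0, and Vegfc 0 in both. Angpt1, the activating ligand of Tek, had 2978 counts (34.6 TPM) in pup 1 and 1 in pup 3, whereas Tek itself had its counts in pup 3. The antagonist Angpt2 had 0 and 10 counts, and Pdgfb, the endothelial ligand of Pdgfrb, 3 and 0. These ligands were thus either near 0 in both pups or near 0 in 1 of them. The barrier-inducing Wnt ligands were split, with Wnt7a at 533 and 0 counts and Wnt7b at 3 and 977, and their co-receptors Adgra2 (1 and 0 counts) and Reck (1 and 15) were near the limit. Nrp1, the neuropilin co-receptor of VEGF, had 44.1 and 14.5 TPM, Tspan12, a partner of the norrin receptor, 170.5 and 29.4 TPM, and the apelin receptor Aplnr 11.8 and 47.9 TPM. For Tspan12 the share of counts differed 29.7-fold, more than the TPM did. Its effective length was 2300 nt in pup 1 and 431 nt in pup 3.

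Of all protein-coding genes 37.8% were shared, 12.3% were seen in pup 1 alone and 5.45% in pup 3 alone. The 4-fold rule was met by 23.6% in pup 1 and 16.2% in pup 3. Nothing particular to the lists below is read from their counts. Among 17 further genes of junctions and barrier transport, 13 were shared and 4 were seen in pup 1 alone. All 17 had at least 50 counts in a pup, and 5 were at least 4-fold higher in pup 1 and 1 in pup 3. Slc3a2, the heavy chain of the large neutral amino acid carrier, had 80.4 and 122 TPM, and the transferrin receptor Tfrc had 23.2 and 78.5 TPM. For Tfrc the share of counts differed 1.61-fold, less than the TPM did. Its effective length was 4344 nt in pup 1 and 1975 nt in pup 3. Of 13 endothelial transcription factors 2 were detected in both, Gata2 (16.8 and 32.6 TPM) and Epas1 (18.5 and 16.1 TPM), and Sox7 had 1 count in pup 1 and 1557 (26.6 TPM) in pup 3. The related Sox17 and Sox18 were also each seen in 1 pup, Sox17 with 249 counts in pup 1 and 0 in pup 3, and Sox18 with 0 and 238. Of the 6 factors with at least 50 counts, 1 was at least 4-fold higher in pup 1 and 3 in pup 3. Of 11 basement membrane genes 7 were detected in both, led by Sparc, a matrix protein that other brain cells make as well (655 and 1213 TPM), nidogen Nid1 (35.1 and 37.8 TPM) and the collagen Col4a1 (19.8 and 18.6 TPM). Of the 9 basement membrane genes with at least 50 counts, 3 were at least 4-fold higher in pup 1 and none in pup 3. Of 16 further mural genes 5 were detected in both, 4 in pup 1 alone and none in pup 3 alone, led by Rgs4 (152 and 92.1 TPM), which neurons also express, the caldesmon Cald1 (27.3 and 54.1 TPM) and the tropomyosin Tpm2 (9.82 and 29.4 TPM). Of the 7 with at least 50 counts, 2 were at least 4-fold higher in pup 1, Kcnj8 (887 and 0 counts) and Higd1b (195 and 0), and none in pup 3, counts too small to set against 23.6% and 16.2% of all genes.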

How the data were processed

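Gene and transcript tables of 2 libraries were analysed, both of 1 group, the P0 hindbrain. According to the deposited notes, reads were aligned to the transcriptome of annotation M4 on the mm10 assembly. Per the file headers, the tables give the expected count that the authors estimated, the TPM and the FPKM, and the transcript tables also the deposited percent of a gene's TPM per transcript. The posterior SD of the count is deposited beside them. The aligner, its version and any use of strand were not given in the sources used here. Reads shared by near-identical or overlapping genes are divided by estimate.

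Symbols, transcript types and gene coordinates (1-based) came from GENCODE M21 on GRCm38, matched by stable identifier, and promoter and microRNA sequences from RefSeq on GRCm38.p6. TPM was rescaled to 1000000 over nuclear genes, without spike-ins and mitochondrial genes. Detection was set at 5 expected counts, the 4-fold count at log2(TPM + 1) differences of 2 among genes with 50 counts in a library, and limits for 0 counts at 3 counts. A share fold is the ratio of shares of nuclear counts, with an exact (Clopper-Pearson) 95% interval. The calculation of the fold count was tested on simulated data, with no outcome given here. Such a test cannot tell sampling of the RNA from a difference between the animals, so it is no evidence for the fold calls. edgeR 4.0.16 and DESeq2 1.42.0 gave alternative scaling factors from rounded expected counts; no test between groups was possible. Tables were read with Python 3.11.15, pandas 2.3.3 and scipy 1.17.1.

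The members, companion lists and marker lists were chosen with earlier results of these data known. By rule the text names all 34 members, the 3 companion genes per list that are highest by mean TPM and 11 signalling genes whatever their values; a gene named by this rule is not reported here. Companion and marker genes named beyond the rule were chosen after their values were seen.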

Additional observations from a re-analysis of the deposited data

How the results depend on the processing

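Members detected in both pups, 4-fold counts, median ratios and levels were recomputed with other detection limits, pseudocounts, folds, minimum counts, and scalings. Of the recomputed group results 58 stayed within 1.5 times a count, 1 SD of a level or a set margin around the median ratio. Beyond these limits, 8 levels or medians moved and 4 counts fell. At 1 TPM 4 mural genes were detected in both pups in place of 8, and at 1 count 2 members were seen in pup 3 only in place of 4. A fold of 8 left 4 members higher in pup 1 and a pseudocount of 5 left 2, in place of 7. The median log2 ratio moved from -0.26 to -0.091 with a pseudocount of 5, to -0.36 with DESeq2 factors and to -0.10 over members detected in both. In FPKM the endothelial sum was 312, the barrier sum 682 and the mural sum 184. In deposited TPM these sums were 465, 1016 and 272. Both are changes of unit, and they lowered every sum. The mural sum stayed within 1 SD because its SD was wide (145 TPM). Without Bsg the barrier sum was 173 TPM, and without Vtn the mural sum was 114 TPM, alternatives chosen after seeing the data. With each pup left out in turn, the endothelial sum ranged from 473 to 573 TPM, the barrier sum from 1123 to 1160 TPM, the mural sum from 203 to 408 TPM and the mural share of the endothelial sum from 0.354 to 0.861; with 2 pups these always lie within 1 SD of the mean and say nothing of stability. For single members, deposited TPM left all 34 within their spread and FPKM 25. Both are the same estimates on another scale, and the spread is the SD of 2 pups. For a gene such as Flt1 (20.7 ± 29.3 TPM) that SD exceeds the mean. These counts of members therefore say nothing of stability. No paired analysis was possible because both libraries belong to 1 group. With 1 library of 13 pg per pup, sampling of the RNA and a difference between the animals cannot be told apart.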
